A study of Rattus norvegicus with 36 samples.

Results

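A set of 142 of the 29516 annotated rat genes differed in the pineal gland between rats without superior cervical ganglia (SCGX) and Sham-operated rats, in the same direction at day and at night, without a large night/day difference in Control. Of these genes, 103 were higher in SCGX (raised genes) and 39 were lower (lowered genes). They were chosen by a rule on measured values, so the values that the rule used are a description and carry no test. Counts were scaled by each library's total of read-pairs on genes (CPM), and the value of a group was the median of its 3 libraries. A log2 ratio, L, was taken between the group values after 0.5 CPM was added to each. A gene entered where L of SCGX against Sham was at least 0.8 in size at both times with the same sign, and where L of Control night against day was under 1 in size. A gene also had to reach 1 CPM in Sham day or SCGX day, a floor that 13962 candidate genes met.

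The study compared pineal glands of Sprague-Dawley rats, male and female, whose ganglia had been operated on at postnatal day 5 and whose glands were collected at an age of 40 days. Control rats had no surgery, Sham rats a sham operation, DCN rats ganglia that were left in place but cut off from their central input (decentralization), and SCGX rats had both ganglia removed. Day glands were collected at ZT7 and night glands at ZT19 of a cycle of 14 hours of light and 10 hours of dark, with 3 libraries per group and time, each a pool of 3 glands. In a separate experiment, glands of female rats aged 2 to 3 months were cultured for 48 hours and then left Untreated, or treated for 6 hours with 1 µM norepinephrine (NE) or 500 µM dibutyryl cyclic AMP (DBcAMP), with 3 libraries each. In addition, 1 library each of pineal day, pineal night and a mixture of 15 tissues was sequenced. None of the groups carried a transgene or an altered allele.

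The pineal gland makes melatonin at night. Its sympathetic nerve fibers come from the superior cervical ganglia, which receive the signal of the circadian clock through the spinal cord, and release norepinephrine in the gland in the dark. Norepinephrine acts on adrenergic receptors of the pinealocyte and raises cyclic AMP, and dibutyryl cyclic AMP enters cells and acts in place of cyclic AMP. SCGX removes the nerve fibers and their ending, whereas DCN leaves the fibers in the gland without central drive. Genes chosen by the rule stand at another level after SCGX at both times of day, and the DCN glands give the level of the same genes with the fibers present but without central drive.

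The deposited tables list genes by Ensembl identifier and do not pair them with symbols, so marker genes of cell types and pathways were not analysed here, and the labelled tissue was not checked against its markers. The identifiers given are the raised genes ENSRNOG00000024640 and ENSRNOG00000022256 and the lowered genes ENSRNOG00000033087 and ENSRNOG00000021046, the 2 in each direction with the largest shift at the time of the smaller shift. RNA came from whole glands, so fewer cells of a type and less RNA per cell cannot be told apart.

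In vivo libraries held between 12985072 and 18504240 read-pairs on genes and culture libraries between 12556861 and 18524435. The libraries of DCN day replicate 1 and Sham night replicate 3 stood apart from the other in vivo libraries. On the second principal component they lay at 41.55 and 40.04, and the others lay between -11.75 and 0.36. DCN libraries took no part in the choice of genes, and Sham night replicate 3 did. Without Sham night replicate 3 the rule chose 122 raised and 43 lowered genes.

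The size of the shift that chose the genes was moderate for most of them. Among raised genes, L of SCGX against Sham had a median of 1.13 at day and 1.39 at night, beside -0.02 and 0.19 over all candidates. Among lowered genes the medians were -1.15 at day and -1.49 at night. Scaling by the library total moved the median gene at night: for DCN against Control at night it was 0.23 over candidates with this scaling, and 0.05 over all genes tested after TMM normalization. Of the candidates, 956 shifted by 0.8 or more at day and 1752 at night, 216 shifted at both times in the same direction, and 206 in opposite directions. Of the 216 genes, 74 were left out for their Control night/day difference, which left the 142. At the edge of the rule, the smaller of the shifts of the last 3 genes taken in was 0.802, 0.802 and 0.806 in size, and that of the first 3 left out was 0.7998, 0.797 and 0.795.

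The choice of genes depended on the Sham libraries. When each of 18 Control, Sham and SCGX libraries was left out in turn, 26 of the 103 raised genes and 17 of the 39 lowered genes were chosen every time. Without Sham day replicate 2 the rule took only 63 raised genes, without Sham night replicate 1 it took 69 lowered genes, and without Sham night replicate 2 it took 79 lowered genes. With the mean of 3 libraries in place of the median it took 71 raised and 83 lowered genes, of which 86 in all were among the 142.

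The raised genes had low levels. On the RPKM scale, which divides by gene length, the median level in Control day was 3.23 for raised genes and 3.77 for lowered genes, and 12.9 for all candidates. In SCGX the median was 6.85 at day and 8.76 at night for raised genes, and 1.45 at day and 1.40 at night for lowered genes. Levels of single raised genes in Control day ran from 0 to 305.7 RPKM and those of lowered genes from 0.0986 to 2368 RPKM. Gene lengths had a median of 1779 bases for raised genes and 1394 for lowered genes, both below the 1995 of candidates. At the floor, 20 raised genes were under 1 CPM in Sham day and 12 lowered genes were under 1 CPM in SCGX day.

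In the separate libraries, the gap between SCGX and Sham follows from the rule and is a description. Relative to the mean of the 6 Control libraries, the median raised gene lay between 0.97 and 1.33 on the log2 scale in the 6 SCGX libraries, and between -0.47 and 0.28 in the 6 Sham libraries. The 6 DCN libraries, which the rule did not use, lay between 1.00 and 1.38. The median lowered gene lay between -1.29 and -1.07 in SCGX, between 0.04 and 0.37 in Sham and between -1.34 and -0.50 in DCN. The DCN library nearest to Control, at -0.50, was DCN day replicate 1, and the other 5 DCN libraries all lay lower. In these medians DCN and Control libraries did not overlap in either direction.

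**Figure D1:**
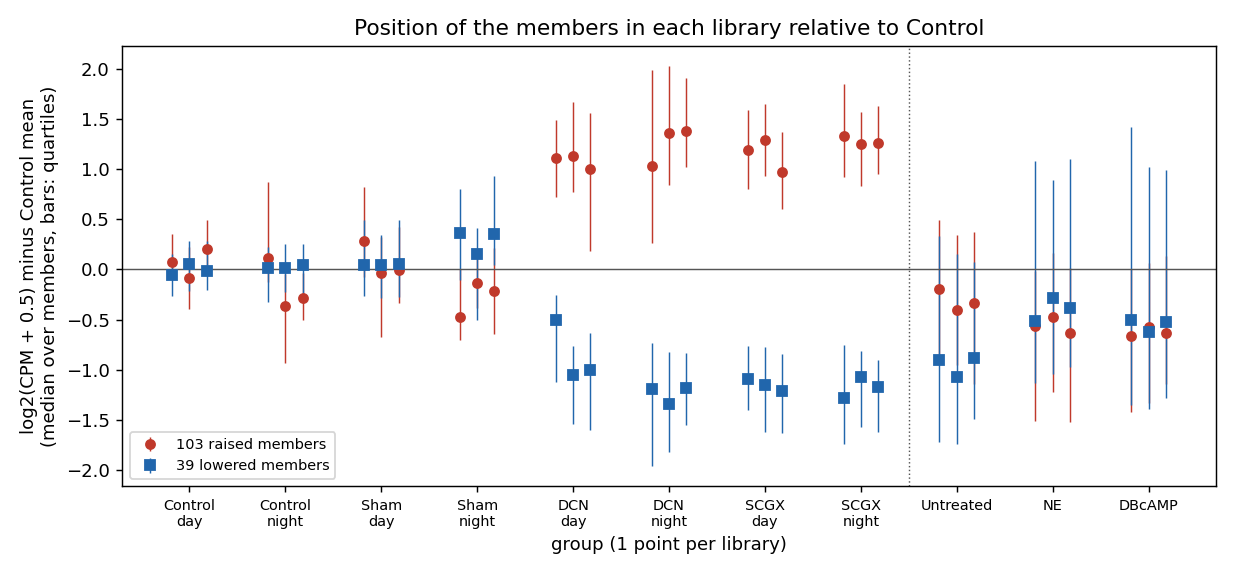
Each point is 1 library, placed at the median over the 103 raised (circles) or 39 lowered (squares) genes of log2(CPM + 0.5) minus that gene's mean over the 6 Control libraries, with bars from the lower to the upper quartile of genes. Groups are on the x axis, cultures right of the dotted line. The DCN libraries, which the rule did not use, lie near the SCGX libraries in both directions, with DCN day replicate 1 nearest to Control among the lowered genes.

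The question put to the DCN glands was whether genes shifted by the loss of the ganglia also differ when the fibers remain without central drive. In DCN against Control, over both times, 67 of the 103 raised genes rose and none fell, and 33 of the 39 lowered genes fell and none rose (edgeR quasi-likelihood test, adjusted p under 0.05). All 142 genes passed the count filter. Over the 15837 genes tested, 12.6% rose and 16.6% fell. Stricter limits were an adjusted p under 0.001 and more than a 2-fold change. At these, 33 raised genes and 19 lowered genes passed, beside 0.821% and 1.21% of all genes tested. The study set these limits for DCN against Sham at day and at night separately, so its lists are not comparable with these counts. The median log2 fold change was 0.98 over raised genes and -1.46 over lowered genes, and 0.01 over all genes tested. It was above 0 for 103 of 103 raised genes and for 3 of 39 lowered genes.

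The raised genes that passed had a median log2 fold change of 1.49 in DCN, with quartiles of 0.99 and 2.05, and a median standard error of 0.245. The lowered genes that passed had a median of -1.60, with quartiles of -1.87 and -1.14, and a median standard error of 0.243. In CPM, all 6 DCN libraries were above all 6 Control libraries for 51 raised genes, beside 7.71% of candidates. All 6 DCN libraries were below all 6 Control libraries for 16 lowered genes, beside 1.68% of candidates. The lowered genes had wide DCN values at day, where DCN day replicate 1 was high. Without DCN day replicate 1, 66 raised genes rose and 35 lowered genes fell. Over all libraries left out in turn, between 62 and 76 raised genes rose and between 27 and 35 lowered genes fell. Among genes chosen without Sham night replicate 3, 80 of 122 raised genes rose and 35 of 43 lowered genes fell in the same fit. Without Sham night replicate 1 or 2 in the choice, 53 of 91 and 65 of 105 raised genes rose. Of the lowered genes chosen in this way, 36 of 69 (52.2%) and 40 of 79 (50.6%) fell, beside 84.6% by the stated rule. The share of lowered genes that fell thus depended on the Sham libraries used for the choice.

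**Figure D2:**
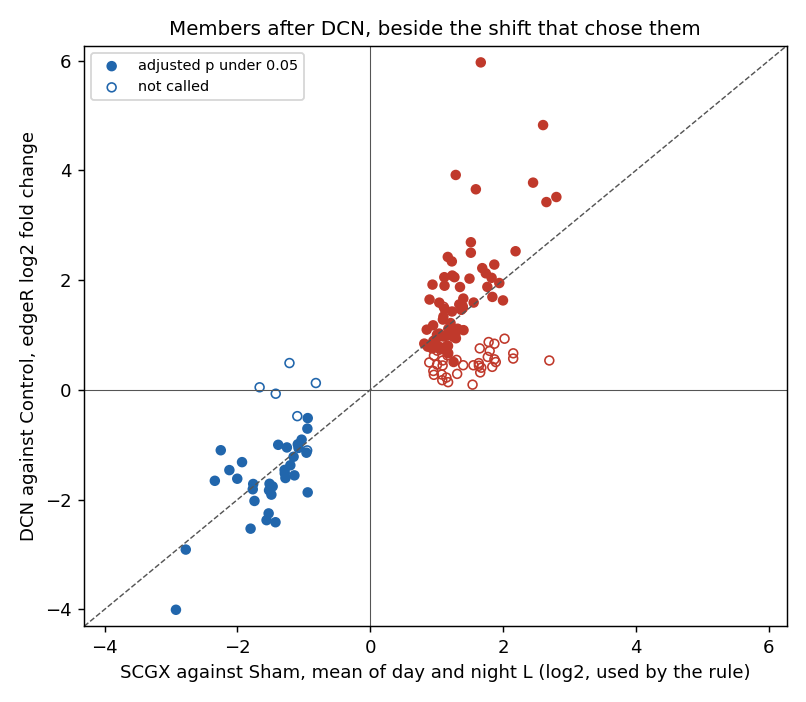
Each point is 1 of the 142 genes, with the mean of the day and night L of SCGX against Sham on the x axis (log2, the values that chose the gene) and the edgeR log2 fold change of DCN against Control over both times on the y axis. Red points are raised genes and blue points lowered genes, filled where the adjusted p was under 0.05, and the dashed line marks equal values. All red points lie above 0, and all but 3 of the 39 blue points lie below 0.

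Taken by time of day, the test was less stable at day. At night 59 raised genes rose and 31 lowered genes fell, beside 12.7% and 14.7% of all genes tested, and 1 raised gene fell by 0.48 on the log2 scale. At the stricter limits 15 and 8 passed at night, beside 0.661% and 2.52%, and 1 and 0 at day, beside 0.00625% and 0.0%. At day 39 raised genes rose and 17 lowered genes fell, beside 3.61% and 3.52% of all genes tested. All 3 DCN libraries were above all 3 Control libraries for 58 raised genes at day (candidates 22.7%) and 67 at night (candidates 41.8%). All 3 were below for 24 lowered genes at day (candidates 12.6%) and 33 at night (candidates 12.6%). The day counts changed with single libraries, and those over all genes changed with them. Without Control day replicate 1, 2 or 3, the number of raised genes that rose was 23, 12 and 10, beside 1.46%, 0.393% and 0.476% of all genes tested. The number of lowered genes that fell was 7, 2 and 2, beside 1.42%, 0.412% and 0.557%. Without DCN day replicate 2 or 3, 22 and 24 raised genes rose, beside 0.857% and 1.46% of all genes, and 5 and 8 lowered genes fell, beside 0.713% and 1.24%. Without DCN day replicate 1 the counts were 49 and 23, beside 5.12% and 4.25%. At night the counts without 1 library stayed between 46 and 68 for raised genes and between 27 and 30 for lowered genes.

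The difference between the night and day effects of DCN was itself tested as an interaction of surgery and time. It passed for 2 raised genes, with a larger rise at night, and for 3 lowered genes, with a larger fall at night, beside 6.67% and 9.44% of all genes tested in those directions. None of the 142 passed the stricter limits, which 0.575% and 2.08% of all genes did. The Control night/day difference enters this test, and the rule limited it, so these counts are a description and nothing is read from them. DCN night against DCN day gave no call among the 142 genes or among the 15928 genes tested (edgeR, 0.0% in each direction). At an unadjusted p under 0.05, 4 raised genes were higher and 1 lower at night, 4 lowered genes were lower, and 1431 of all genes passed. DESeq2 called 1 raised gene higher and 1 raised gene lower at night, and 79 of all genes higher and 40 lower. In Control, where the rule had set a limit, the median L of night against day was -0.34 for raised and 0.01 for lowered genes, beside -0.21 for candidates.

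The levels in SCGX were next set beside those in DCN. L of SCGX against DCN had a median of -0.05 at day and -0.11 at night over raised genes, and of -0.20 and 0.08 over lowered genes, beside -0.08 and -0.01 over candidates. At day 3 raised genes were higher in SCGX than in DCN by 0.8 or more and 6 were lower, and at night 1 was higher and 4 were lower. Among candidates 1.07% were higher and 1.91% lower by this much at day, and 0.609% and 0.437% at night. Of the lowered genes 2 were higher and 4 lower at day, and 3 higher and 1 lower at night. These values use the SCGX libraries of the rule and were not tested. L of DCN against Sham, which shares Sham with the rule, had a median of 1.15 at day and 1.62 at night over raised genes, and of -1.09 and -1.58 over lowered genes. Sham against Control had medians of -0.03 and -0.05 over raised genes and of 0.17 and 0.24 over lowered genes.

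The raised gene ENSRNOG00000024640, of 3452 bases, was near the floor in Control and Sham glands. Its CPM was 1.31, 1.36 and 1.31 in Control day, 0.562, 0.852 and 0.377 in Control night, 1.12, 0.860 and 1.17 in Sham day, and 0.752, 1.95 and 0.709 in Sham night. In SCGX it was 11.4, 8.35 and 8.82 at day and 8.70, 10.7 and 10.1 at night. In DCN it was 5.22, 10.7 and 16.8 at day and 12, 10.2 and 13.5 at night. The lowest DCN library was above the highest Control library, and the groups did not overlap. The log2 fold change of DCN against Control was 3.51 with a standard error of 0.295 (edgeR adjusted p 8.0e-06 over all genes tested). At night it was 4.10 (adjusted p 6.3e-05) and at day 2.98 (adjusted p 0.0136), and the day call was lost without Control day replicate 2 or 3. On the length-scaled measure its mean was 0.385 ± 0.00754 RPKM in Control day and 3.16 ± 1.68 RPKM in DCN day (SD, n = 3 libraries).

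The lowered gene ENSRNOG00000021046, of 2006 bases, showed the reverse, with DCN and SCGX near 0. Its CPM was 3.87, 3.17 and 5.20 in Control day, 3.62, 5.54 and 6.73 in Control night, 4.68, 4.70 and 3.25 in Sham day, and 9.40, 6.38 and 5.95 in Sham night. In SCGX it was 0.445, 0.214 and 0.645 at day and 0.154, 0.127 and 0.297 at night. In DCN it was 1.13, 0.203 and 0.129 at day and 0.140, 0.198 and 0.263 at night. The highest DCN value was that of DCN day replicate 1 and was still below every Control library. The DCN libraries held 18, 3 and 2 read-pairs of this gene at day and 2, 3 and 4 at night. With so few, the size of its fold change is imprecise. The log2 fold change of DCN against Control was -4.01 with a standard error of 0.419 (edgeR adjusted p 4.0e-05). At night it was -4.87 (adjusted p 0.000143) and at day -3.09 (adjusted p 0.0364). The day call was lost without any of Control day replicates 1, 2 and 3 or DCN day replicates 2 and 3.

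The lowered gene ENSRNOG00000033087, of 10541 bases, had a higher level and a wider spread. Its CPM was 39.8, 38.9 and 63.5 in Control day, 11.5, 25.2 and 35.7 in Control night, 77.0, 40.7 and 45.2 in Sham day, and 41.8, 16.3 and 31.5 in Sham night. In SCGX it was 4.19, 9.77 and 5.16 at day and 5.01, 4.13 and 6.77 at night. In DCN it was 12.2, 3.32 and 2.39 at day and 3.56, 3.82 and 5.32 at night. DCN day replicate 1 was above the lowest Control night library, so that over both times the groups overlapped, whereas at each time they did not. The log2 fold change of DCN against Control was -2.91 with a standard error of 0.389 (edgeR adjusted p 0.000229). At night it was -2.72 (adjusted p 0.0025) and at day -3.04 (adjusted p 0.0207), and the day call was lost without any 1 of the 3 Control day libraries or without DCN day replicate 2.

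The raised gene ENSRNOG00000022256, of 1113 bases, varied widely between libraries within Control night, Sham day and both DCN groups. Its CPM was 5.83, 4.14 and 12.2 in Control day, 53.2, 1.09 and 3.59 in Control night, 33.7, 0.926 and 2.63 in Sham day, and 4.57, 5.30 and 1.77 in Sham night. In SCGX it was 15.7, 16.98 and 10.1 at day and 45.0, 33.5 and 40.7 at night, and in DCN 27.4, 10.4 and 3.75 at day and 3.77, 45.5 and 30.04 at night. The highest Control library, Control night replicate 1, was above all DCN libraries, and the groups overlapped at both times. The log2 fold change of DCN against Control was 0.54 with a standard error of 0.798 (edgeR adjusted p 0.651), and it did not pass the test. Without Control night replicate 1 it was 2.03 and passed. As the rule takes the median of 3 libraries, the single high libraries of Sham day and Control night did not enter the group values.

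**Figure D3:**
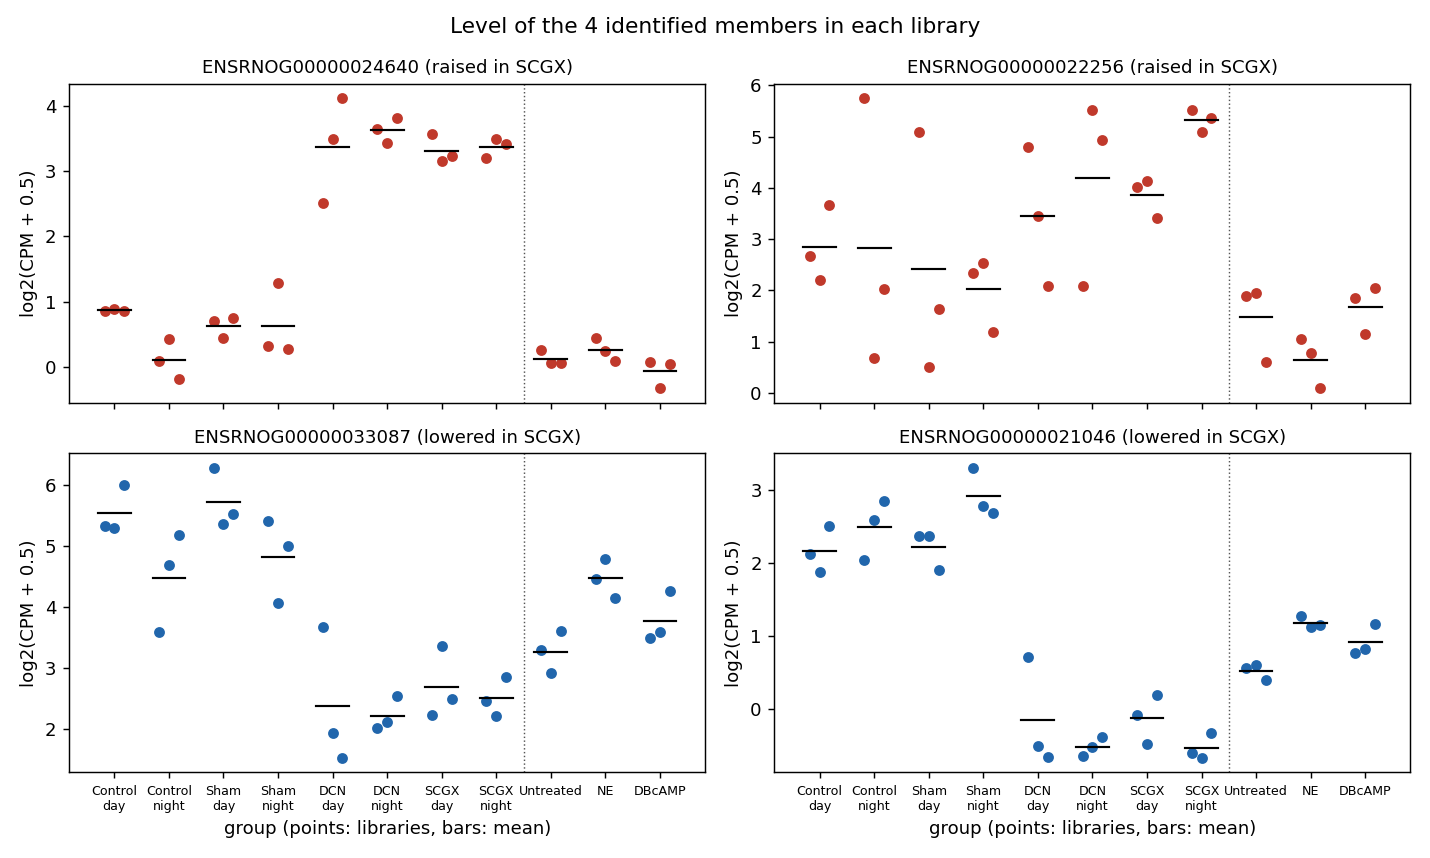
Points are libraries and horizontal bars the group means of log2(CPM + 0.5) for the 4 identified genes, with groups on the x axis and cultures right of the dotted line. For ENSRNOG00000024640, ENSRNOG00000033087 and ENSRNOG00000021046 the DCN and SCGX libraries lie apart from Control and Sham at each time, whereas ENSRNOG00000022256 spreads over a wide range within Control night, Sham day and both DCN groups.

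A wide range among libraries of a group was common among the raised genes. For 40 of the 103 raised genes and 13 of the 39 lowered genes, CPM + 0.5 ranged over more than 4-fold among the 3 libraries of at least 1 in vivo group, beside 5.19% of candidates. This split was set after the values were seen, and no test was made on it. In the raised genes 1 component held 62.4% of the variance within groups. The 40 wide genes moved together between libraries. Relative to Control, their median was 1.46 on the log2 scale in Control night replicate 1 and 1.09 in Sham day replicate 1, and -1.10 in Control night replicate 2 and -0.73 in Sham day replicate 2. In DCN night it was 0.21 in replicate 1, and 1.90 and 1.91 in replicates 2 and 3. In the 6 SCGX libraries it lay between 0.57 and 1.74.

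The other 63 raised genes are those that stayed within this 4-fold range in every in vivo group. Their median was between 0.92 and 1.2 in the 6 DCN libraries and between 1.04 and 1.21 in the 6 SCGX libraries, and between -0.43 and 0.27 in the 12 Control and Sham libraries. Of the 67 raised genes that rose in DCN, 53 belonged to these 63 and 14 to the 40 wide genes. The split uses the spread of the same DCN and Control libraries as the test, and the rule used SCGX and Sham. These levels and counts are therefore a description only. In the lowered genes 1 component held 32.0% of the variance within groups, and its highest libraries were DCN day replicate 1 and Sham night replicate 3, those that stood apart over all genes. Of the 33 lowered genes that fell in DCN, 25 were among the 26 genes within the 4-fold range and 8 among the 13 wide genes. The part of these library differences in the shift was not tested.

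**Figure D4:**
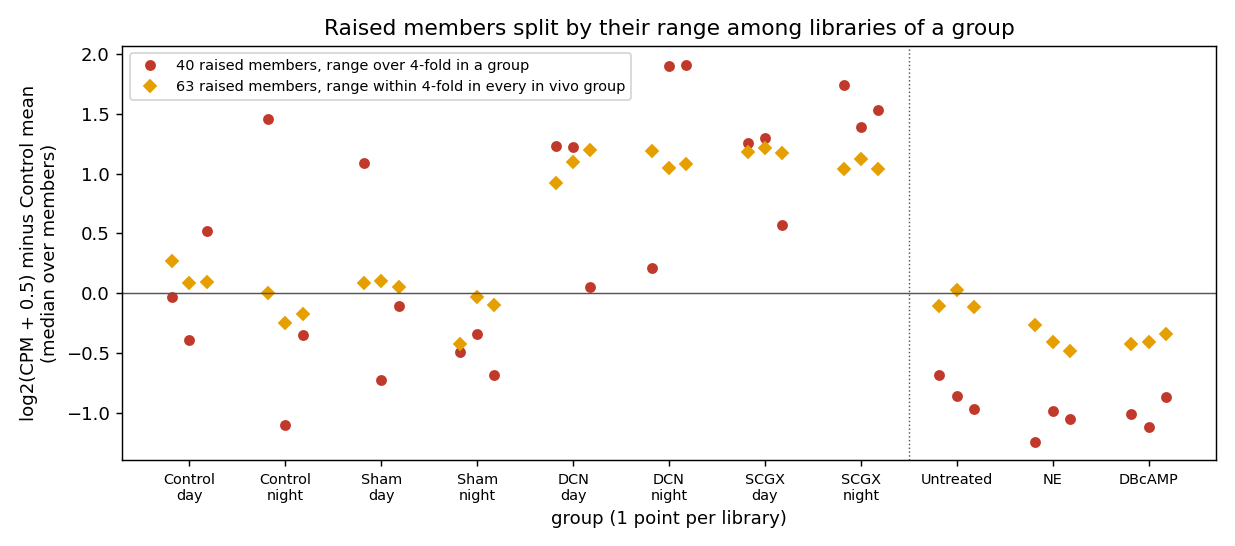
Each point is 1 library, placed at the median of log2(CPM + 0.5) minus the Control mean over the 40 raised genes with a range of over 4-fold in some in vivo group (circles) or over the other 63 raised genes (diamonds). The diamonds lie near 0 in Control and Sham and near 1 in DCN and SCGX, and the circles spread widely within Control night, Sham day, DCN day and DCN night. The diamonds were picked for a small range within groups, so their tightness is a description.

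In cultured glands the question was whether the genes respond to the transmitter or to its second messenger. With NE, 17 of the 37 lowered genes tested rose and 1 fell, beside 14.2% and 16.1% of the 15219 genes tested. Of the 92 raised genes tested, 20 fell and 2 rose with NE. The median log2 fold change was 0.44 over lowered genes, -0.31 over raised genes and -0.03 over all genes tested. The lowered genes that rose had a median log2 fold change of 1.05 and a median standard error of 0.179 (edgeR, adjusted p under 0.05). At the stricter limits 6 lowered genes rose and 4 raised genes fell, beside 2.84% and 0.782% of all genes. At an adjusted p under 0.05, the share of lowered genes that rose, 45.9%, stood above the background of 14.2%, and the share of raised genes that fell was 21.7% beside 16.1%. The raised genes that rose, 2.17% of those tested, were below the background of 14.2%. Among all genes called lower in DCN and tested with NE, 39.6% rose with NE, beside 51.5% of the 33 lowered genes called in DCN. Among all genes called higher in DCN, 34.0% fell with NE, beside 19.4% of the 67 raised genes called in DCN. A rise with NE was thus common among genes lower in DCN and not particular to the lowered genes.

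With DBcAMP, which was set against the same Untreated libraries, 16 of the 37 lowered genes tested rose and 3 fell, beside 19.4% and 22.5% of the 15196 genes tested. Of the 91 raised genes tested, 21 fell and 9 rose. The share that fell, 23.1%, was near the background of 22.5%, and the share that rose, 9.89%, was below 19.4%. At the stricter limits 7 lowered genes rose and 6 raised genes fell, beside 4.27% and 1.39% of all genes. The median log2 fold change was 0.47 over lowered genes and -0.27 over raised genes, beside -0.03 over all genes tested.

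Among the identified genes, the lowered ENSRNOG00000033087 responded most to NE. Its CPM was 9.30, 7.04 and 11.7 in Untreated, 21.5, 27.2 and 17.3 with NE, and 10.7, 11.5 and 18.6 with DBcAMP. The NE libraries were above all Untreated libraries, and the DBcAMP libraries overlapped with them. The log2 fold change was 1.31 ± 0.18 (SE) with NE (edgeR adjusted p 3.7e-05) and 0.67 ± 0.22 (SE) with DBcAMP (adjusted p 0.0269), and the DBcAMP call was lost with scaling by the library total and without Untreated replicate 1 or 2 or DBcAMP replicate 3.

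The lowered ENSRNOG00000021046 had a CPM of 0.979, 1.01 and 0.810 in Untreated, 1.91, 1.69 and 1.71 with NE, and 1.195, 1.27 and 1.75 with DBcAMP. Both treated groups lay above Untreated. The log2 fold change with NE was 1.02 ± 0.30 (SE, edgeR adjusted p 0.0161), and it did not pass with DESeq2 or without Untreated replicate 3 or NE replicate 1. With DBcAMP it was 0.73 ± 0.32 (SE, adjusted p 0.0834). The raised ENSRNOG00000024640 stayed between 0.300 and 0.856 CPM in the 9 culture libraries, with a log2 fold change of 0.36 ± 0.40 (SE) with NE (edgeR adjusted p 0.551) and -0.21 ± 0.44 (SE) with DBcAMP (adjusted p 0.727). The raised ENSRNOG00000022256 was between 0.570 and 3.65 CPM in culture, with a log2 fold change of -1.03 ± 0.43 (SE) with NE (edgeR adjusted p 0.0858). It passed with no count filter (adjusted p 0.00657) and without Untreated replicate 3 (adjusted p 0.00773).

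**Figure D5:**
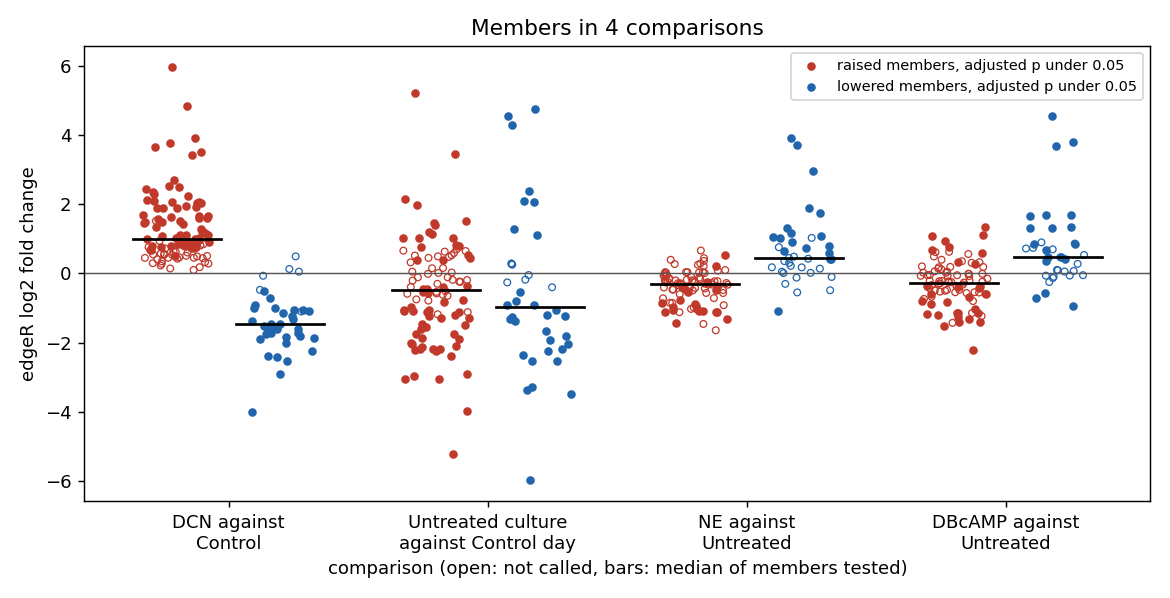
Each point is 1 gene, with its edgeR log2 fold change on the y axis in 4 comparisons, raised genes in red and lowered genes in blue, filled where the adjusted p was under 0.05, and black bars at the median of the genes tested. Raised genes lie above 0 in DCN against Control with a median of 0.98 and below 0 by median in the other 3 comparisons, and lowered genes have medians of -1.46, -0.98, 0.44 and 0.47 in the order shown.

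The Untreated cultures, which lack nerve input for 48 hours and more, were set against Control day glands. These groups also differ in age, sex, medium and experiment, which cannot be told apart from the loss of innervation. Of the 38 lowered genes tested, 23 were lower in Untreated culture and 8 higher, beside 27.7% and 27.6% of the 15660 genes tested. Of the 98 raised genes tested, 43 were lower and 19 higher in culture. At the stricter limits 15 lowered genes were lower and 7 higher, and 17 raised genes were lower and 8 higher, beside 6.83% lower and 7.02% higher over all genes. Median log2 fold changes were -0.98 over lowered genes and -0.49 over raised genes, beside -0.01 over all genes tested. The lowered ENSRNOG00000021046 fell by 2.03 on the log2 scale (edgeR adjusted p 9.4e-05) and ENSRNOG00000033087 by 2.23 (adjusted p 7.3e-06). The raised ENSRNOG00000024640 was lower in culture as well, by a log2 fold change of -1.06 (adjusted p 0.0151), in contrast to its rise in DCN.

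Against the mixture of 15 tissues, with 1 library each and so no replicate check, the genes lay on both sides. Of the 95 raised genes over a mean of 30 scaled counts, 4 were over 8-fold higher in the pineal day library than in the mixture and 12 were over 8-fold lower, beside 1.6% and 4.31% of candidates. At night the counts were 5 and 18 of 93, beside 2.61% and 5.0%. Scaled by the library total, they were 3 and 20 at night, beside 2.17% and 5.83%. Past 2-fold, 25 raised genes were higher and 29 lower at day, beside 14.3% and 17.4%, and 30 and 32 at night, beside 17.3% and 18.9%. Of the 37 lowered genes, 4 were over 8-fold higher and 3 over 8-fold lower at day, and 4 and 4 at night. The identified ENSRNOG00000022256 had a log2 ratio of 2.63 at day and 3.08 at night, ENSRNOG00000033087 of 2.21 and 1.38, ENSRNOG00000024640 of -1.35 at both, and ENSRNOG00000021046 of -1.17 and -0.63. The pineal libraries of this comparison were from other pools than the 24 in vivo libraries.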

How the data were processed

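RNA of 36 libraries was measured as strand-specific, ribo-depleted total RNA. Per the submitters' processing notes and the study's methods, the authors aligned read-pairs with STAR 2.3.1y to the rn4 assembly and counted those on 1 gene of the Ensembl release 69 annotation. The deposited read-pair counts per gene were not normalized. The deposited RPKM values equal count divided by gene length and by library total, and were used for levels between genes. Read-pairs on more than 1 gene are not counted, so near-identical copies can be undercounted.

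The genes were chosen by the stated rule, and members, lists and tests were chosen with earlier results of these data known. Comparisons were fitted on all genes with edgeR 4.0.16 in R 4.3.3 (TMM, quasi-likelihood test, Benjamini-Hochberg), on genes averaging 5 or more normalized counts over the libraries of the fit, and genes were called at an adjusted p under 0.05. Genes past the 0.001 and 2-fold limits, which the study used for DCN against Sham, were also counted. For its culture comparisons the study used a larger fold limit. Standard errors were taken from the fold change and its F statistic. Replicates are pools of glands, so p-values cover the spread between pools. Pineal and mixed tissue were scaled by the median of ratios, with a floor of 3 read-pairs. Scripts used Python 3.11.15 and were tested on simulated counts.

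Alternatives were DESeq2 1.42.0, other scalings, other count filters, a replicate block, all 24 in vivo libraries in 1 model, and leaving out each library. Genes to be identified were to have symbols. As the tables pair none with the identifiers, the 2 with the largest smaller shift in each direction were taken, after values were seen. Fixed lists of marker and pathway genes were therefore not analysed here.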

Additional observations from a re-analysis of the deposited data

Results flagged for a closer look

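The effect of DCN against Control differed between night and day, by an interaction of surgery and time over 12 libraries, for 2 raised and 3 lowered genes (edgeR, adjusted p under 0.05, beside 6.67% of all genes tested in the first direction and 9.44% in the second). These genes were 1.94% of the raised and 7.69% of the lowered genes, below those shares. The rule limited the Control night/day difference, which enters this test, so the values are a description. For the 2 raised genes the log2 difference was 0.79 (standard error 0.195) and 3.33 (standard error 0.749). In the first, DCN was above Control by 0.59 at day and 1.39 at night, and in the second the values were -0.22 and 3.12. For the 3 lowered genes the log2 difference was -1.61, -1.57 and -1.08. DCN was below Control at night by a log2 fold change of -3.30, -1.80 and -1.51 in these genes, and at day the values were -1.70, -0.24 and -0.44. Without Control night replicate 1, 4 raised genes passed with a higher and 1 with a lower effect at night, and 2, 1 and 1 raised genes had a lower effect at night without DCN day replicate 1, 2 or 3. Of the lowered genes, 1 passed without Control day replicate 2 or 3, Control night replicate 2 or DCN day replicate 1, and 5 without DCN day replicate 3.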

How the results depend on the processing

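The titles give replicate numbers in every group, but libraries with the same number did not deviate together: over 18 pairs of libraries the correlation of deviations was between -0.373 and 0.214, and it was over 0.1 for 2. With the replicate block, DCN against Control over both times still gave 67 raised genes that rose and 33 lowered genes that fell, at day 25 and 10 in place of 39 and 17, the lowered genes that fell with NE went from 1 to 2, and the raised gene that fell at night was no longer called. No other count of raised or lowered genes moved by over 1.5 times. Of the identified genes, ENSRNOG00000022256 passed with NE (adjusted p 0.0166) under the block and ENSRNOG00000021046 did not pass in DCN at day. The block turned the interaction of ENSRNOG00000022256 from -0.55 to 0.85.

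Counts over both times kept within 1.5 times under every scaling, filter, tool and library left out. With the mean of 3 libraries the rule chose 83 lowered genes. Under the stricter limits the counts for raised and lowered genes were 33 and 19 for DCN over both times. These counts were 1 and 0 at day, 15 and 8 at night, and 0 and 0 for the interaction. In culture they were 4 that fell and 6 that rose with NE, 6 and 7 with DBcAMP, and for Untreated against Control day 17 raised genes lower, 8 raised genes higher, 15 lowered genes lower and 7 lowered genes higher. DESeq2 called 1 raised gene higher and 1 lower in DCN night against day, and in the interaction both DESeq2 and the filter of 10 read-pairs in every library called 1 raised gene higher and 1 lower. At a 2-fold limit against mixed tissue, 25 raised genes were enriched and 29 depleted at day, and 30 and 32 at night, and of lowered genes 12 and 15 at day and 11 and 13 at night. With the library total, 3 raised genes were enriched at night. The causes were not tested.

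With libraries left out in turn, the rule chose 63 to 122 raised and 35 to 79 lowered genes. DCN counts for raised and lowered genes were 62 to 76 and 27 to 35 over both times, 10 to 49 and 2 to 23 at day, 46 to 68 and 27 to 30 at night, 2 to 4 and 1 to 5 for the interaction, and 0 throughout for night against day. Culture counts were 15 to 21 and 15 to 17 for NE, 15 to 23 and 14 to 17 for DBcAMP, and 33 to 41, 14 to 21 and 22 to 23 for Untreated against Control day.

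Alternatives set after the data were seen were genes chosen without Sham night replicate 3, with the mean, and with TMM scaling. In DCN, 80 of 122, 60 of 71 and 60 of 96 raised genes were called. For lowered genes the counts were 35 of 43, 41 of 82 and 39 of 52 tested, beside 33 of 39 by the stated rule. Over all genes tested, 12.6% rose and 16.6% fell. Of genes within a 4-fold range, 53 raised and 25 lowered were called.

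The identified genes changed sign in places, where they did not pass the test. With libraries left out in turn, ENSRNOG00000022256 in DCN against Control ran from -0.13 (without DCN day replicate 1) to 1.39 at day and from -0.33 (without DCN night replicate 2) to 3.25 at night, where it was also -0.28 and -0.21 without Control night replicate 2 or 3. Its interaction ran from -1.15 to 2.40 (without Control night replicate 1) and was 0.42 without DCN day replicate 1. With DBcAMP it ran from -0.079 (without Untreated replicate 3) to 0.61. ENSRNOG00000024640 ran from -0.34 to 0.026 (without DBcAMP replicate 2) with DBcAMP, and from -0.18 (without DCN day replicate 1) to 0.64 in DCN night against day. ENSRNOG00000033087 ran from -0.83 to 0.61 (without DCN day replicate 1) in DCN night against day, and its interaction from -0.052 (without Control night replicate 1) and -0.051 (without DCN day replicate 3) to 1.38.

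Genes near the floor have few read-pairs, which limits the precision of their ratios.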
